A study of Homo sapiens with 8 samples.

Results

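The nuclear-encoded subunits of the mitochondrial respiratory chain and of ATP synthase were followed in Ishikawa cells, a human cell line from an endometrial adenocarcinoma. Members were the rows of the count table whose symbol follows the naming of these subunits: NDUFA, NDUFB, NDUFC, NDUFS or NDUFV with a number and NDUFAB1 for complex I, SDHA to SDHD for complex II, UQCR for complex III, COX4 to COX8 with a subunit letter for complex IV, and ATP5 for complex V. The rule found 86 of 26364 rows, 38 of complex I, 4 of complex II, 9 of complex III, 16 of complex IV and 19 of complex V, after 2 pseudogene rows, ATP5EP2 and UQCRBP1, were left out. It uses symbols alone, so it also takes ATP5S, ATP5SL, the read-through row ATP5J2-PTCD1 and the UQCRH copy UQCRHL, counts NDUFA4 with complex I although that protein is known to associate with complex IV, and leaves out relatives such as CYC1, NDUFA4L2 and COX7A2L.

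Complexes I, III and IV pass electrons from NADH to oxygen and pump protons across the inner mitochondrial membrane, complex II feeds in electrons from succinate, and complex V uses the proton gradient to make ATP. The nuclear genome encodes most of these subunits, and the mitochondrial genome encodes a small core set that must be matched in amount. Glucocorticoids and estrogens are both known to act on mitochondrial gene programmes in several tissues, in part through the coactivators PGC-1alpha and PGC-1beta, which act with factors such as NRF1, GABPA and estrogen-related receptor alpha on subunit promoters.

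Cells had been kept without phenol red and with serum stripped of steroids. They received dexamethasone at 100 nM together with 17-beta-estradiol at 10 nM (the combination), dexamethasone alone at 100 nM, estradiol alone at 10 nM, or the vehicle DMSO, with 2 libraries in each of the 4 groups and 8 in all. Dexamethasone activates the glucocorticoid receptor and estradiol the estrogen receptor. The treatment labels of the samples give 8 hr, whereas the protocol shared by all samples gives 1 hr, and the sources used here do not settle which applies. Replicates carry the numbers 1 and 2, except that both combination columns carry the number 1, so that the column that does not match the label of combination replicate 1 is called the other combination library. The labels do not state that replicate libraries were grown as separate cultures. A p-value therefore measures the spread among these 8 libraries alone, and that spread may be technical.

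Libraries held 17846211 to 22487333 counts assigned to genes. All 8 epithelial marker genes were tested and summed to 3382 to 4862 CPM per library (counts scaled to the TMM-adjusted library size), at 3790 to 4030 CPM in the combination, 4368 to 4862 CPM with dexamethasone, 3394 to 3600 CPM with estradiol and 3382 to 3990 CPM with DMSO. Summed markers of leukocytes reached 1.21 to 3.09 CPM with CD3E at 0 in every library, and those of endothelium 1.85 to 4.38 CPM. KDR, an endothelial receptor gene, rose with the combination and with dexamethasone against DMSO but stayed at or under 1.46 CPM, and PAX8, an epithelial factor, was lower in the combination than with dexamethasone (edgeR adjusted p = 0.0119, 0.0102 and 0.0484). The part of these shifts in the members' values was not tested. Fibroblast markers summed to 137 to 201 CPM, most of it COL1A1, and striated muscle markers to 17.1 to 52.2 CPM with MYL2 at 0 in every library. Of the 86 members, 78 passed the expression filter and were tested among 14201 genes. A member that passed only through a group where it is high would have to differ. The lowest count of a tested member in any library was 34, for ATP5E in DMSO replicate 1. Counts over the 78 are not counts over all members.

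The 86 members together took 1.06% and 0.946% of the assigned counts in the combination libraries, 0.960% and 1.05% with dexamethasone, 0.898% and 0.994% with estradiol, and 0.864% and 1.01% with DMSO. Group means were 1.00% ± 0.0792 for the combination, 1.00% ± 0.0624 for dexamethasone, 0.946% ± 0.0676 for estradiol and 0.936% ± 0.103 for DMSO (SD, n = 2 each). The libraries of all 4 groups overlapped, and the spread within a group was as wide as the distance between group means. A two-sided exact permutation test of the share, in which 2 against 2 libraries cannot go below p = 0.333, gave p = 0.667 for the combination and for dexamethasone against DMSO and for the combination against estradiol. The same exact test gave p = 1 for estradiol against DMSO and for the combination against dexamethasone. In bulk RNA, fewer cells of a type and less RNA per cell cannot be told apart.

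By complex, the summed level of the members of complex I was 3199 ± 277 CPM in the combination, 3190.0 ± 268 CPM with dexamethasone, 2995 ± 221 CPM with estradiol and 2974 ± 405 CPM with DMSO (SD, n = 2 each). Complex V, the ATP synthase, summed to 3745 ± 211, 3758 ± 245, 3618 ± 161 and 3570.0 ± 427 CPM in the same order of groups. Complex II, the smallest set and the only one of these enzymes shared with the citric acid cycle, summed to 344.5 ± 4.66, 344 ± 7.10, 351 ± 7.52 and 325 ± 18.2 CPM. In the plot of summed levels the libraries within each group lie further apart than the lowest and the highest bar for complexes I, III and V, and for complex IV in every group except estradiol. Complex II differed from this: the libraries of each hormone group lay closer together than the lowest and the highest bar, and both DMSO libraries, at 312 and 338.1 CPM, lay below all 6 hormone libraries, at 338.7 to 356 CPM.

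**Figure D1:**
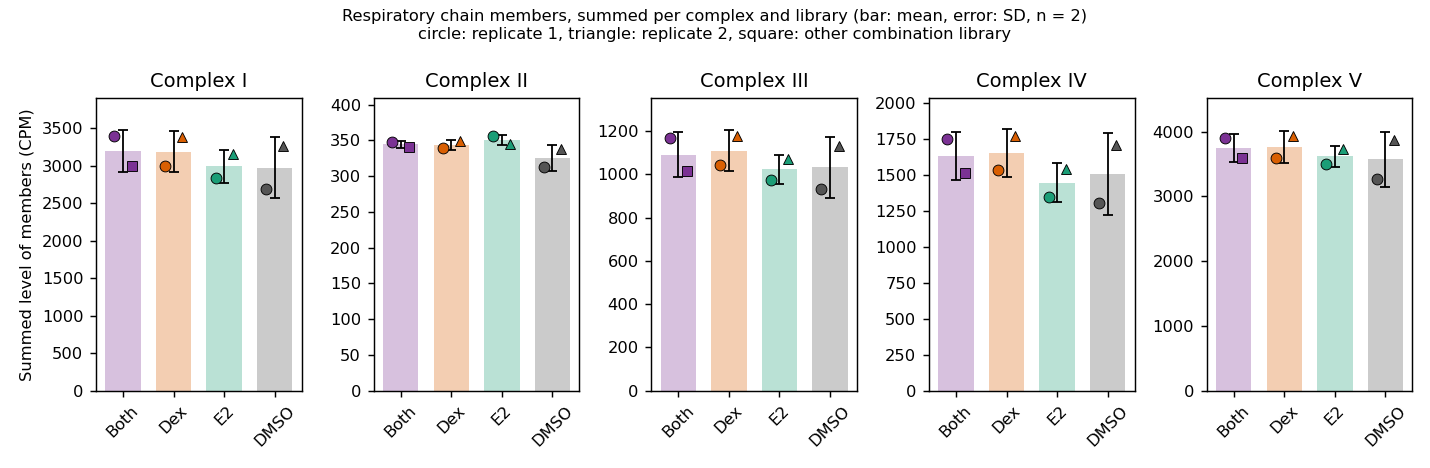
Summed level of the members of each complex in CPM (y axis) by group (x axis), with bars for the mean, error bars for the SD of 2 libraries and symbols for single libraries. For complex IV the libraries reach from 1309 CPM in DMSO replicate 1 to 1771 CPM in dexamethasone replicate 2, and all groups overlap.

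Levels of different genes were compared as mean CPM per kilobase of a coding transcript of median length in the GENCODE annotation, which is an approximation because the transcript used in these cells is not known. ATP5B, the catalytic beta subunit of ATP synthase, led with a level of 720 CPM per kilobase, 1.61 times that of COX6A1, an accessory subunit of cytochrome c oxidase, at 447 CPM per kilobase. Complex IV had the highest median level, 266 CPM per kilobase over 10 tested members, followed by 180 over 17 members of complex V, 115 over 9 of complex III, 101 over 38 of complex I and 92.0 over 4 of complex II. At the low end, apart from ATP5E, ATP5S and UQCRHL, NDUFV3 of the electron input module of complex I stood at 24.4 CPM per kilobase.

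ATP5B had 1405 and 1311 CPM in the combination libraries, 1305 and 1350.0 CPM with dexamethasone, 1309 and 1382 CPM with estradiol, and 1196 and 1328 CPM with DMSO. ATP5A1, the alpha subunit that forms the catalytic ring with it, had 609.7 and 588 CPM in the combination, 603.5 and 659 CPM with dexamethasone, 585 and 606 CPM with estradiol, and 562 and 651 CPM with DMSO. COX6A1 had 288.5 and 248 CPM in the combination, 247 and 320.4 CPM with dexamethasone, 206 and 249.7 CPM with estradiol, and 204 and 282 CPM with DMSO. For all 3 the groups overlapped. Over the 78 tested members the highest library exceeded the lowest by 1.36 times at the median, by under 1.5 times for 67 members and by least, 1.11 times, for NDUFA10, an accessory subunit of complex I.

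Several subunits exist in alternative forms made in particular tissues, and Ishikawa cells counted almost only the general form. COX4I2, the form known from lung and low oxygen, had 1 of 39372 COX4 counts over the 8 libraries. COX6A2 and COX7A1 are the heart and skeletal muscle forms: COX6A2 had 0 of 41857 counts of its pair, which allows a share of up to 0.00717%, and COX7A1 had 8 of 18917. Of the forms known from testis, COX7B2 had 0 of 18799 counts, which allows up to 0.0160%, COX6B2 had 19 of 22676 and COX8C 11 of 28389. These limits are 3 counts of the total and cover counting error only. COX6A2, COX7B2 and ATP5J2-PTCD1 had 0 counts in every library, and with COX4I2, COX6B2, COX7A1, COX8C and ATP5L2 they are the 8 members that did not pass the filter.

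ATP5G1, ATP5G2 and ATP5G3 encode the same mature subunit of the membrane ring of ATP synthase, and their reads were split 15.4%, 56.8% and 27.8% over all libraries. The ATP5G2 share of reads was 56.0% ± 0.344 in the combination, 59.0% ± 1.44 with dexamethasone, 55.8% ± 0.441 with estradiol and 56.6% ± 1.04 with DMSO (SD, n = 2 each). ATP5G3 took 28.5% and 29.2% in the combination libraries, 27.0% and 23.7% with dexamethasone, 28.6% and 29.02% with estradiol, and 29.02% and 27.3% with DMSO. Both dexamethasone libraries were the lowest for ATP5G3, with dexamethasone replicate 1 within 0.3 percentage points of DMSO replicate 2, and 2 against 2 libraries cannot reach p = 0.05 in an exact permutation test. These are shares of reads, with no correction for transcript length.

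With edgeR's quasi-likelihood method and a threshold of 0.05 on the p adjusted over all genes (Benjamini-Hochberg), 0 of 78 tested members were called for the combination, dexamethasone alone or estradiol alone against DMSO, and likewise 0 for the combination against estradiol, for the combination against dexamethasone and for the interaction. Of all 14201 genes tested, 2.19% were called for the combination, 0.965% for dexamethasone and 1.8% for estradiol against DMSO, 0.275% for the combination against estradiol, 2.67% for the combination against dexamethasone and 0.0211% for the interaction. These counts over all genes depended on single libraries. The 311 calls for the combination against DMSO were 157 without combination replicate 1 and 194 without the other combination library, and the 137 for dexamethasone were 78 without DMSO replicate 1. The 256 for estradiol were 58 and 87 without estradiol replicates 2 and 1 and 131 without DMSO replicate 2. The 39 for the combination against estradiol were 10 and 16 without estradiol replicates 1 and 2, 19 without combination replicate 1, and 68 and 63 without DMSO replicates 1 and 2. The 379 for the combination against dexamethasone were 90 without dexamethasone replicate 2 and 89 and 100 without combination replicate 1 and the other combination library, and the 3 for the interaction ranged from 1 to 10. The interaction subtracts the effect of dexamethasone in the absence of estradiol from its effect in the presence of estradiol. DESeq2 and limma-voom also called 0 members in all 6 comparisons.

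At an unadjusted p under 0.05, edgeR listed 1 member for the combination against DMSO, NDUFA11 (10.8% of all genes), 0 for dexamethasone (9.84%) and 0 for estradiol (11.4%). It listed 2 members, ATP5I and NDUFB1, for the combination against estradiol (6.37% of all genes), 1 member, ATP5S, for the combination against dexamethasone (16.7%) and 0 for the interaction (5.16%). The members' share at this level was below that of all genes in each comparison. DESeq2, which gave values for 83 members, listed 1, 1, 0, 2, 0 and limma-voom, with 78, listed 1, 0, 0, 2, 1 members in the first 5 comparisons. The order is combination, dexamethasone and estradiol against DMSO, combination against estradiol, combination against dexamethasone. For these 2 tools the share of all genes at this level was not computed, so their counts cannot be read as few or many.

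The 95% interval of the fold change lay within 1.5-fold either way for 74 of 78 members in the combination against DMSO, for 73 with dexamethasone and 75 with estradiol against DMSO, for 71 in the combination against estradiol, for 76 in the combination against dexamethasone and for 65 in the interaction. Within 2-fold it lay for 77 of 78 in each of the 6 comparisons, the exception being ATP5E. The members whose interval reached past 1.5-fold in the combination against DMSO were NDUFA11, UQCR10, ATP5S and ATP5E. The share of all genes within these limits was not computed. Members varied together between libraries, so these are not counts of independent genes.

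Fold changes of the members were mostly of 1 sign in 3 comparisons. Log2 fold changes were above 0 for 66 of 78 members in the combination against DMSO (49.7% of all genes), for 72 with dexamethasone against DMSO (50.9%) and for 69 in the combination against estradiol (50.6%), but for 31 with estradiol against DMSO (48.7%), 36 in the combination against dexamethasone (49.4%) and 37 in the interaction (48.4%). The median log2 fold change of the members was 0.086 for the combination against DMSO, 0.086 for dexamethasone against DMSO, -0.028 for estradiol against DMSO, 0.10 for the combination against estradiol, -0.0079 for the combination against dexamethasone and -0.0050 for the interaction, while the median of all genes lay between -0.0079 and 0.0041. The comparisons with DMSO share its libraries.

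Members whose libraries did not overlap between groups were few. In the combination 10 members lay wholly above DMSO and 1 below, where all genes gave 19.8% and 19.3%. With dexamethasone 8 lay above and 1 below (18.5% and 17.7% of all genes), and with estradiol 4 above and 3 below (18.3% and 17.9%). Of the combination 15 lay above estradiol and 0 below (18.1% and 19.6%), and 7 above and 5 below dexamethasone (24.8% and 25%). The share of members wholly above was thus below that of all genes in each comparison except the combination against estradiol, where 15 of 78 is near it.

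Single libraries set the sign of these medians. For the combination against DMSO the members' median log2 fold change was -0.061 without DMSO replicate 1, 0.27 without DMSO replicate 2, -0.0018 without combination replicate 1 and 0.18 without the other combination library. For dexamethasone against DMSO it was -0.044 without DMSO replicate 1, 0.25 without DMSO replicate 2, 0.17 without dexamethasone replicate 1 and 0.0091 without dexamethasone replicate 2. For estradiol against DMSO it was -0.16 without DMSO replicate 1, 0.15 without DMSO replicate 2, 0.040 without estradiol replicate 1 and -0.099 without estradiol replicate 2. No member was called in any of these fits, although without DMSO replicate 2 an unadjusted p under 0.05 was reached by 25 members in the combination and by 25 with dexamethasone, where 12.8% and 15% of all genes tested in these fits reached it.

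For the combination against estradiol the median stayed above 0, between 0.0093 without combination replicate 1 and 0.19 without estradiol replicate 2, and was 0.041 without estradiol replicate 1 and 0.19 without the other combination library. For the combination against dexamethasone it was -0.097 without dexamethasone replicate 1, 0.088 without dexamethasone replicate 2, -0.089 without combination replicate 1 and 0.086 without the other combination library. The interaction median ran from -0.16 without DMSO replicate 2 to 0.17 without DMSO replicate 1, and leaving out 1 of the other 6 libraries gave medians from -0.10 to 0.095.

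**Figure D2:**
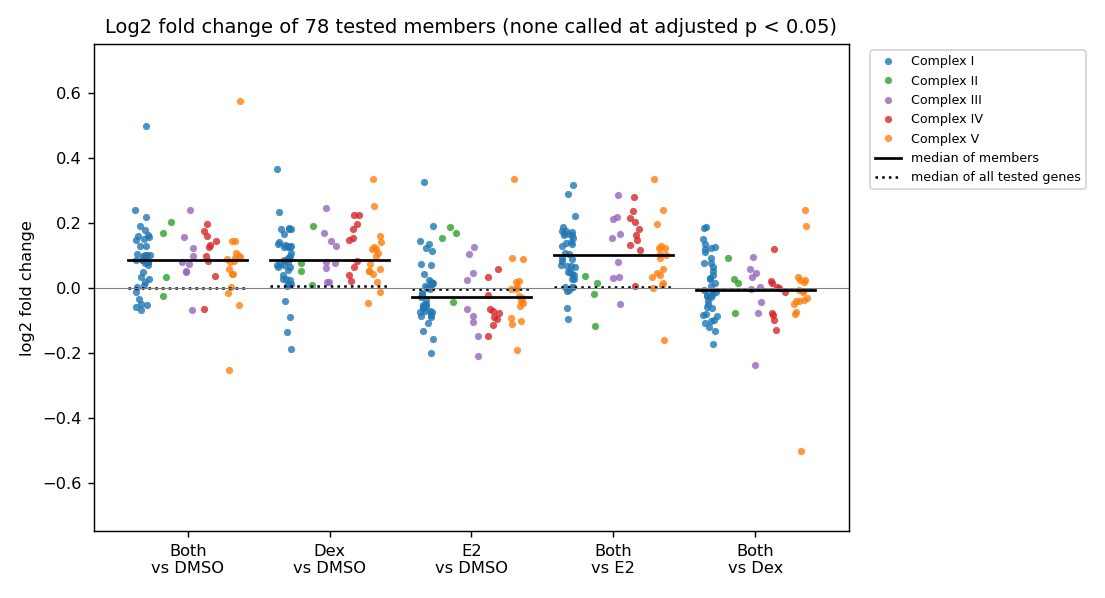
Log2 fold change (y axis) of the 78 tested members in 5 comparisons (x axis), 1 point a member, coloured by complex, with a solid line at the members' median and a dotted line at the median of all tested genes. The lines of the members' medians lie between -0.028 and 0.10, and no member was called.

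In complex I, NDUFA11 had the largest difference of the combination from DMSO apart from ATP5E. It encodes a membrane-arm subunit needed for a stable complex. Its level was 265 and 203 CPM in the combination libraries, 196 and 230.3 CPM with dexamethasone, 180.0 and 234 CPM with estradiol, and 135 and 196 CPM with DMSO. DMSO replicate 1 was the lowest and combination replicate 1 the highest, DMSO replicate 2 lay just below the combination and dexamethasone libraries, and estradiol overlapped DMSO. The log2 fold change was 0.50 ± 0.19 (SE) for the combination, with an edgeR adjusted p of 0.338, and 0.36 ± 0.19 for dexamethasone and 0.32 ± 0.19 for estradiol, with adjusted p of 0.585 and 0.616. Without DMSO replicate 1 the combination's log2 fold change was 0.25, and without DMSO replicate 2 it was 0.79. A GENCODE transcript of NDUFA11 shares 376 identical bases with the gene AC024592.3, so reads of the pair may not be separated.

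NDUFB10, NDUFB1, NDUFB3 and NDUFB6 encode accessory subunits of the membrane arm. NDUFB10 had 78.6 and 70.1 CPM in the combination, 74.8 and 88.3 CPM with dexamethasone, 64.0 and 68.8 CPM with estradiol, and 64.8 and 74.0 CPM with DMSO. Both dexamethasone libraries lay above DMSO, by a log2 fold change of 0.23 ± 0.12 (edgeR adjusted p = 0.565). NDUFB1 had 50.8 and 47.3 CPM in the combination, 43.0 and 53.2 CPM with dexamethasone, 38.7 and 41.6 CPM with estradiol, and 40.7 and 47.3 CPM with DMSO. Both combination libraries lay above both estradiol libraries, with a log2 fold change of 0.29 ± 0.12 (adjusted p = 0.761).

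NDUFB3 had 32.7 and 30.4 CPM in the combination, 28.8 and 29.2 CPM with dexamethasone, 27.1 and 30.3 CPM with estradiol, and 31.9 and 34.2 CPM with DMSO. Each hormone alone lay wholly below DMSO, with log2 fold changes of -0.19 ± 0.10 for dexamethasone and -0.20 ± 0.10 for estradiol, whereas the combination overlapped DMSO at -0.068 ± 0.10. The interaction was 0.32 ± 0.15 with an unadjusted p of 0.0525, the smallest among the members, and an adjusted p of 0.945. NDUFB6 had 56.8 and 54.1 CPM in the combination, 49.1 and 48.4 CPM with dexamethasone, 51.1 and 54.8 CPM with estradiol, and 48.3 and 58.9 CPM with DMSO. Its combination libraries lay above those with dexamethasone alone, by 0.19 ± 0.11 on the log2 scale (adjusted p = 0.439).

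Complex II consists of the flavoprotein SDHA, the iron-sulfur subunit SDHB and the membrane anchors SDHC and SDHD. SDHB had 106 and 95.4 CPM in the combination, 93.4 and 106 CPM with dexamethasone, 92.3 and 104 CPM with estradiol, and 80.4 and 94.2 CPM with DMSO. DMSO replicate 1 was the lowest, both combination libraries lay above DMSO, and each single hormone overlapped it. The log2 fold changes were 0.20 ± 0.12 for the combination, 0.19 ± 0.12 for dexamethasone and 0.17 ± 0.12 for estradiol (edgeR adjusted p = 0.629, 0.646 and 0.71). SDHA varied least of the 4, with 91.1 and 90.5 CPM in the combination, 93.0 and 98.6 CPM with dexamethasone, 87.2 and 92.4 CPM with estradiol, and 89.5 and 95.5 CPM with DMSO. Its largest difference was -0.077 ± 0.091 for the combination against dexamethasone (adjusted p = 0.731), where the groups did not overlap.

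SDHD had 103 and 107 CPM in the combination, 106 and 101 CPM with dexamethasone, 123 and 106 CPM with estradiol, and 104 and 101 CPM with DMSO. Estradiol replicate 1 was high and the other libraries lay within a few CPM. The log2 fold change of estradiol against DMSO was 0.15 ± 0.098 (adjusted p = 0.675).

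In complex III, UQCR10, a small membrane subunit, had 108.5 and 86.7 CPM in the combination, 90.7 and 105 CPM with dexamethasone, 78.5 and 89.5 CPM with estradiol, and 70.2 and 95.01 CPM with DMSO. All 3 hormone groups overlapped DMSO. Both dexamethasone libraries lay above both estradiol libraries, narrowly at 90.7 against 89.5 CPM, but dexamethasone was not tested against estradiol. The log2 fold changes against DMSO were 0.24 ± 0.16 for the combination and 0.25 ± 0.16 for dexamethasone (adjusted p = 0.702 and 0.665). UQCRB, a ubiquinone-binding subunit, had 149.5 and 133 CPM in the combination, 151 and 182 CPM with dexamethasone, 137 and 131 CPM with estradiol, and 147 and 149.7 CPM with DMSO. Dexamethasone libraries were above all others and estradiol libraries below DMSO. The combination against dexamethasone gave -0.24 ± 0.11 on the log2 scale (unadjusted p = 0.0505, adjusted p = 0.301), and estradiol against DMSO -0.15 ± 0.11 (adjusted p = 0.738).

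UQCRC2, a core protein of complex III, had 120.1 and 108 CPM in the combination, 114 and 127 CPM with dexamethasone, 115 and 121 CPM with estradiol, and 111 and 109.8 CPM with DMSO. Each single hormone lay above DMSO, and the interaction was -0.18 ± 0.14 on the log2 scale (adjusted p = 1). UQCRHL had 10.9 and 9.92 CPM in the combination, 9.73 and 10.3 CPM with dexamethasone, 8.78 and 8.35 CPM with estradiol, and 7.45 and 12.3 CPM with DMSO. Its transcript is 97.9% identical over 516 bases to that of UQCRH, the hinge protein, whose level was 131 to 165 CPM, so its reads may belong in part to UQCRH. The combination lay above estradiol by 0.28 ± 0.20 (adjusted p = 0.964).

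Complex IV members had the highest median of the 5 complexes for the combination against DMSO, at 0.13, for dexamethasone against DMSO, at 0.15, and for the combination against estradiol, at 0.17. In the same comparisons the medians of the other complexes lay between 0.078 and 0.10, between 0.064 and 0.098, and between -0.0012 and 0.15. For estradiol against DMSO complex IV had the lowest median, -0.075, with the others between -0.066 and 0.16. Its 10 tested members have transcripts of 474 to 794 bases. The medians by complex were not recomputed with single libraries left out. COX7B, a small membrane subunit, had 129.3 and 109 CPM in the combination, 115 and 140.0 CPM with dexamethasone, 96.3 and 111 CPM with estradiol, and 93.7 and 125 CPM with DMSO. COX5A, a subunit on the matrix side, had 149.5 and 131 CPM in the combination, 129.7 and 147 CPM with dexamethasone, 123 and 136 CPM with estradiol, and 110.0 and 138.5 CPM with DMSO. For both genes the hormone groups overlapped DMSO. For COX7B both dexamethasone libraries lay above both estradiol libraries, a comparison that was not tested. The data gave log2 fold changes of 0.22 ± 0.15 for dexamethasone against DMSO in COX7B and 0.17 ± 0.13 for the combination against DMSO in COX5A (adjusted p = 0.684 and 0.753).

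COX5B, a zinc-binding subunit on the matrix side, had 128.5 and 113 CPM in the combination, 116 and 128 CPM with dexamethasone, 92.6 and 106.5 CPM with estradiol, and 94.7 and 126 CPM with DMSO. The combination lay above estradiol, by 0.28 ± 0.14 on the log2 scale (adjusted p = 0.84), and estradiol against DMSO gave -0.15 ± 0.14 (adjusted p = 0.829), which became 0.074 without DMSO replicate 2. COX6C had 72.6 and 61.4 CPM in the combination, 71.4 and 75.2 CPM with dexamethasone, 64.7 and 68.6 CPM with estradiol, and 69.1 and 71.1 CPM with DMSO. COX7C had 230.2 and 198 CPM in the combination, 213 and 211 CPM with dexamethasone, 192.5 and 198 CPM with estradiol, and 189 and 228 CPM with DMSO. For COX6C the combination against dexamethasone was -0.13 ± 0.10, and for COX7C the interaction was 0.11 ± 0.16 (adjusted p = 0.582 and 1).

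In complex V, ATP5I encodes subunit e, which helps ATP synthase form dimers. It had 93.8 and 80.5 CPM in the combination, 83.9 and 87.5 CPM with dexamethasone, 62.8 and 75.2 CPM with estradiol, and 69.4 and 88.4 CPM with DMSO. Both combination libraries exceeded both estradiol libraries, with a log2 fold change of 0.34 ± 0.14 (unadjusted p = 0.0311, adjusted p = 0.71), and estradiol against DMSO gave -0.19 ± 0.14 (adjusted p = 0.716). Transcripts of ATP5I and MYL5 share 127 identical bases in GENCODE.

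ATP5S, the coupling factor B gene and no constant part of the enzyme, had 3.55 and 3.28 CPM in the combination, 4.96 and 4.71 CPM with dexamethasone, 3.49 and 4.11 CPM with estradiol, and 4.25 and 3.89 CPM with DMSO. Dexamethasone libraries were the highest, and the combination lay below those of dexamethasone and of DMSO. The combination against dexamethasone gave a log2 fold change of -0.50 ± 0.18 (unadjusted p = 0.019, adjusted p = 0.197), the combination against DMSO -0.25 ± 0.19 and dexamethasone against DMSO 0.25 ± 0.18 (adjusted p = 0.755 and 0.7). ATP5S was among the 3 tested members with the lowest levels.

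ATP5E, the epsilon subunit of the central stalk, was the least stable member. It had 7.01 and 2.16 CPM in the combination, 5.59 and 2.08 CPM with dexamethasone, 5.01 and 2.87 CPM with estradiol, and 1.78 and 4.33 CPM with DMSO. The highest library exceeded the lowest by 3.93 times and the libraries of each group differed more than the groups did, with a log2 fold change of 0.57 ± 0.58 for the combination against DMSO (adjusted p = 0.863). The read-through row SLMO2-ATP5E was listed at 0 in every library and SLMO2 at 67.3 to 100.2 CPM. Whether reads in stretches that these rows share were left uncounted was not tested, and the low ATP5E level is given with that limit.

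The members varied together between the libraries of a group. The other combination library was above combination replicate 1 for 5 of 78 tested members, dexamethasone replicate 2 above replicate 1 for 67, estradiol replicate 2 above replicate 1 for 67, and DMSO replicate 2 above replicate 1 for 73, where 49.2% to 52.5% of all genes were higher in the library named first. The median log2 ratio of the members was -0.17 in the combination, 0.17 with dexamethasone, 0.15 with estradiol and 0.29 with DMSO. Relative to the mean over the 8 libraries, 71 members were high in combination replicate 1 and 22 in the other combination library, 27 and 66 in dexamethasone replicates 1 and 2, 9 and 45 in estradiol replicates 1 and 2, and 4 and 67 in DMSO replicates 1 and 2.

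Of the 78 tested members, 60 followed the majority in all 4 pairs of libraries. The 4 that followed it in at most 1 pair were SDHD, SDHC, NDUFS1 and NDUFA5, which were picked out after their values were seen. SDHD and SDHC are the membrane anchors of complex II, NDUFS1 is the large iron-sulfur subunit of complex I, and NDUFA5 belongs to its matrix arm. NDUFS1 had 98.9 and 105 CPM in the combination, 110.4 and 89.5 CPM with dexamethasone, 99.6 and 97.7 CPM with estradiol, and 114 and 98.7 CPM with DMSO, so that its higher library was the lower one for most members in each pair.

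**Figure D3:**
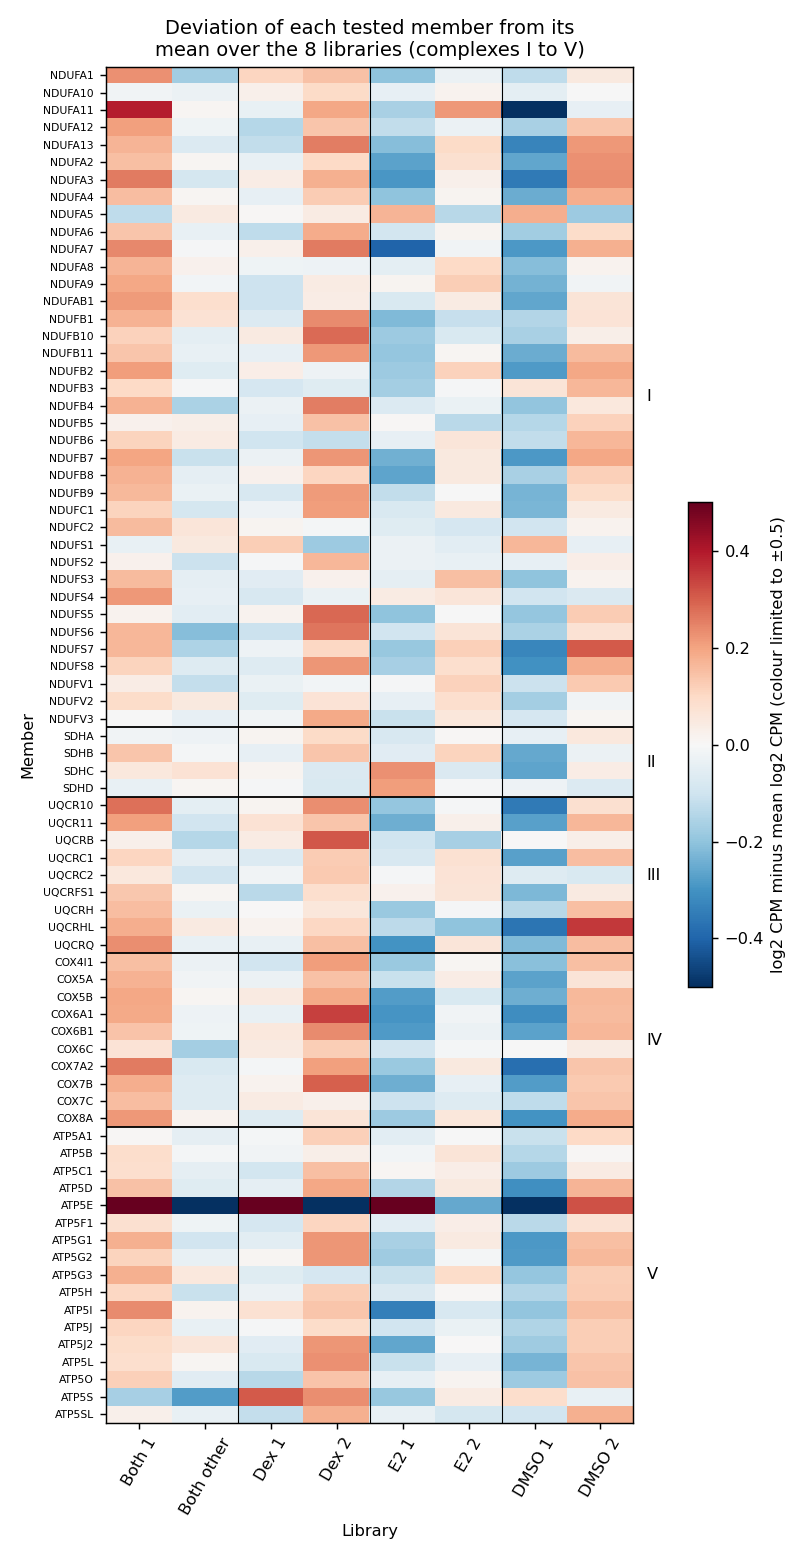
Deviation of log2 CPM from the mean over the 8 libraries (colour) for the 78 tested members (rows, by complex) in each library (columns). Combination replicate 1, dexamethasone replicate 2 and DMSO replicate 2 are red for most members, DMSO replicate 1 and estradiol replicate 1 are blue for most, and ATP5E has the strongest colours.

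Other gene classes moved with this difference between libraries. The 80 tested genes of cytosolic ribosomal proteins had median log2 ratios of -0.22, 0.24, 0.13 and 0.38 in the same 4 pairs (combination, dexamethasone, estradiol and DMSO). Genes with a transcript under 1000 bases had -0.078, 0.084, 0.091 and 0.15, and those of 3000 bases or more 0.075, -0.078, -0.070 and -0.083. The transcript was a coding one where the gene has any, so these classes may also hold noncoding genes. Of the tested members 56 have a transcript under 1000 bases, and the median ratio of these was -0.20, 0.18, 0.17 and 0.32, against -0.13, 0.14, 0.076 and 0.23 for the other 22. The ribosomal RNA row RNA45S5 took 3.08% and 3.97% of counts in the combination libraries, 3.23% and 1.42% with dexamethasone, 3.13% and 2.79% with estradiol, and 3.58% and 4.03% with DMSO. The part of transcript length, of ribosomal RNA and of library preparation in the members' values was not tested.

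**Figure D4:**
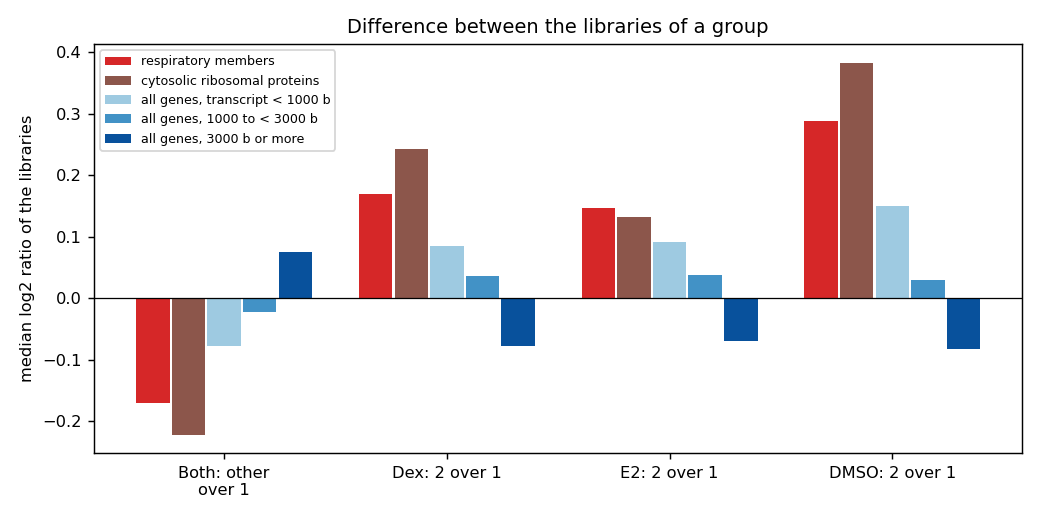
Median log2 ratio between the libraries of each group (y axis) for the respiratory members, for cytosolic ribosomal protein genes and for all genes in 3 classes of transcript length (bars). Members and ribosomal protein genes point the same way as short transcripts in all 4 pairs, with members between -0.17 and 0.29, and transcripts of 3000 bases or more point the other way.

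Among 15 tested regulators of mitochondrial gene expression, which include NRF1, GABPA, ESRRA and TFAM, PPARGC1A and PPARGC1B were the only genes called. PPARGC1A, which encodes PGC-1alpha, had 4.70 and 5.39 CPM in the combination, 10.6 and 11.95 CPM with dexamethasone, 2.08 and 1.90 CPM with estradiol, and 4.15 and 3.31 CPM with DMSO. Dexamethasone libraries were the highest and estradiol libraries the lowest, without overlap between any 2 groups. It rose with dexamethasone against DMSO by a log2 fold change of 1.60 ± 0.18 (edgeR adjusted p = 0.00111), was higher in the combination than with estradiol by 1.34 ± 0.20 (adjusted p = 0.0192), and was lower in the combination than with dexamethasone, at -1.16 ± 0.17 (adjusted p = 0.00655). Against DMSO, estradiol gave -0.90 ± 0.21 (adjusted p = 0.0637) and the combination 0.44 ± 0.19 (adjusted p = 0.418), and the interaction was -0.25 ± 0.27 (adjusted p = 1).

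The dexamethasone call of PPARGC1A held in every alternative run, with adjusted p up to 0.0134. The call against estradiol was lost without either estradiol or either combination library (adjusted p = 0.0728 to 0.312), and the call against dexamethasone without dexamethasone replicate 2 or without combination replicate 1 (0.0542 and 0.0801).

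PPARGC1B, which encodes PGC-1beta, had 21.9 and 25.6 CPM in the combination, 16.6 and 12.6 CPM with dexamethasone, 29.7 and 28.5 CPM with estradiol, and 16.4 and 14.6 CPM with DMSO. Estradiol libraries were the highest, followed by the combination, and the dexamethasone and DMSO libraries overlapped. It rose with estradiol against DMSO by 0.91 ± 0.15 on the log2 scale (adjusted p = 0.00931) and was higher in the combination than with dexamethasone by 0.70 ± 0.15 (adjusted p = 0.0324), while the combination against DMSO gave 0.62 ± 0.15 (adjusted p = 0.0605, and called by DESeq2). The estradiol call was lost without estradiol replicate 1, estradiol replicate 2 or DMSO replicate 2 (adjusted p = 0.102, 0.105 and 0.0551). The call against dexamethasone was lost without dexamethasone replicate 2 (0.249), without either estradiol library (0.0673 and 0.0677) and without either combination library (0.0904 and 0.273).

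**Figure D5:**
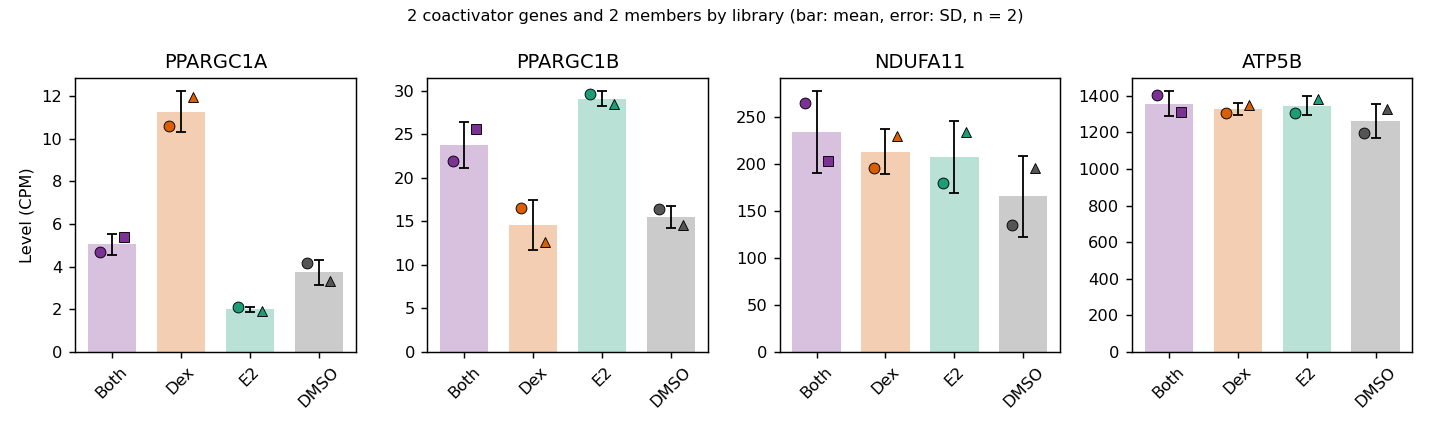
Level in CPM (y axis) of PPARGC1A, PPARGC1B, NDUFA11 and ATP5B by group (x axis), with bars for the mean, error bars for the SD of 2 libraries and symbols for single libraries (circle replicate 1, triangle replicate 2, square the other combination library). PPARGC1A stands at 10.6 and 11.95 CPM with dexamethasone and at 4.15 and 3.31 CPM with DMSO, whereas the libraries of NDUFA11 and ATP5B spread within groups.

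In edgeR 0 were called in any of the 6 comparisons among 47 tested assembly factors, 18 genes of the citric acid cycle and pyruvate dehydrogenase, 21 carriers and coenzyme Q genes, 75 mitochondrial ribosomal proteins and 5 relatives outside the symbol rule, and DESeq2 and limma-voom also called 0. At an unadjusted p under 0.05 the counts per comparison were 0 to 3 assembly factors, 0 to 3 citric acid cycle genes, 0 to 1 carriers, 0 to 3 mitochondrial ribosomal proteins and 0 relatives. Except for the citric acid cycle genes, the share of each list was below that of all genes in each comparison. Citric acid cycle genes were near it for the combination against dexamethasone, 16.7% against 16.7%, and against DMSO, 11.1% against 10.8%. For estradiol against DMSO they gave 11.1% against 11.4%, and for the interaction 5.56% against 5.16%. With dexamethasone against DMSO the median log2 fold change was 0.065 for assembly factors and 0.088 for mitochondrial ribosomal proteins, against 0.086 for the members. For the combination against DMSO these medians were 0.085, 0.078 and 0.086. The lists and the members lay further apart for estradiol against DMSO, at 0.047, 0.055 and -0.028, and for the combination against estradiol, at 0.030, 0.023 and 0.10. For the combination against dexamethasone they were 0.029, -0.026 and -0.0079. The 13 mitochondrially encoded subunits were not analysed here.

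RefSeq promoters, from 250 bases before to 50 after the start of the gene in GRCh38.p14, were found for 68 of 86 members and searched on both strands for fixed motifs, which may overlap. The build differs from the hg19 of the counts. The NRF1 motif was present in 4 member promoters, 5.88%, against 1.24% of 35116 promoters, GABPA letters (CCGGAAGT) in 9, 13.2% against 4.14%, and the YY1 motif in 4, 5.88% against 0.849%. The 35116 promoters were not chosen by gene type or by expression in these cells, so these shares compare unlike sets. Letters of estrogen-related receptor alpha (TCAAGGTCA), a partner of the PGC-1 coactivators, were in 1, that of SDHD, 1.47% against 0.353%. The full palindrome of the estrogen response element was in 0 member promoters and 0.057% of all. It was in only 20 of 35116 promoters, so a count of 0 among 68 does not show that members lack such elements. For the glucocorticoid response element only a short, loose pattern with several free positions was searched, not the full element. This loose pattern was in 1 member promoter, that of COX5A, 1.47% against 2.36%, so its match does not show a full element there. Promoters of SDHD (NRF1 and GABPA), COX5B (GABPA), NDUFA8 (NRF1) and SDHB (YY1) are shown as examples, with matches to these 3 motifs in capitals on either strand, and that of NDUFA11, the member with the smallest p against DMSO, holds none of the 6.
SDHD, chr11:112086623-112086922, plus strand: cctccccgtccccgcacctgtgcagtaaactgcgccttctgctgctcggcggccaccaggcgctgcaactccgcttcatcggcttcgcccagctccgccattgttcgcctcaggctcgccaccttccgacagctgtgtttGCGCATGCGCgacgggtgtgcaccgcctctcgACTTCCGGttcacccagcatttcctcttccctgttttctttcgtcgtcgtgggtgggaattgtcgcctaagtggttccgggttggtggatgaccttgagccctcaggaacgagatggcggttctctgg
COX5B, chr2:97645812-97646111, plus strand: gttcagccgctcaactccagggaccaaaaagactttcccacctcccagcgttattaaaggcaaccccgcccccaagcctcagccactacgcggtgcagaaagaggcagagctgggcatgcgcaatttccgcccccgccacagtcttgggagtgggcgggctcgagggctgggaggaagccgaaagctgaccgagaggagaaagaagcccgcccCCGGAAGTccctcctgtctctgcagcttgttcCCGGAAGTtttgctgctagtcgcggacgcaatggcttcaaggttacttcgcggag
NDUFA8, chr9:122159730-122160029, minus strand: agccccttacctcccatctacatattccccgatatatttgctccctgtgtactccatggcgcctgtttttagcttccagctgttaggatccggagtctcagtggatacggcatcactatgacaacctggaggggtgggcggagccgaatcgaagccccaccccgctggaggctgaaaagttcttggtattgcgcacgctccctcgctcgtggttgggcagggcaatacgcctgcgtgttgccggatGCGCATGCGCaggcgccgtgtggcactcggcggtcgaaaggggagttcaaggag
SDHB, chr1:17053983-17054282, minus strand: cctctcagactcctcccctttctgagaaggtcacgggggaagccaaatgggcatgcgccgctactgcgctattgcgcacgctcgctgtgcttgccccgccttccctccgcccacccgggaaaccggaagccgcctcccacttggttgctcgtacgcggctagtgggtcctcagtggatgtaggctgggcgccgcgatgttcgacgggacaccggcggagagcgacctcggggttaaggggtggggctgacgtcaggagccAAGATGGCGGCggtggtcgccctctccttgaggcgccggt
NDUFA11, chr19:5903741-5904040, minus strand: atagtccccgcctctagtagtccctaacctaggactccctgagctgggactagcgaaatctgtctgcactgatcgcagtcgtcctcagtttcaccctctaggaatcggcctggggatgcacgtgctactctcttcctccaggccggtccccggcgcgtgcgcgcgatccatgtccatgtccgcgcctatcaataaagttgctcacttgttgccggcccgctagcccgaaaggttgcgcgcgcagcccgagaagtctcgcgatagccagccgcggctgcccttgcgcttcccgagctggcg
A match of letters is a description and shows no binding. SDHD, with NRF1, GABPA and estrogen-related receptor letters, stood at 101 to 123 CPM in the 8 libraries, COX5B at 92.6 to 128.5 CPM, and neither was called in any of the 6 comparisons.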

How the data were processed

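RNA of 8 libraries of Ishikawa cells was made into stranded mRNA libraries, per the labels' protocols. The authors deposited whole-number counts for each gene and a second table of signal, in which each deposited value is the count divided by 1 factor per library (0.876 to 1.11, relative deviation up to 5.1e-15), used only for that check. HISAT2 2.0.4, featureCounts 1.5.1 of Subread and DESeq2 1.14.1 are named with the hg19 build, per the submitters' processing notes. For counting, annotation and strand use were not given in the sources used here; overlapping and antisense genes may not be separated.

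The count test was that of edgeR 4.0.16 under R 4.3.3: filterByExpr by group left 14201 of 26364 genes, TMM scaling, a quasi-likelihood fit of 4 groups over 8 libraries with 4 residual degrees of freedom, 6 contrasts, and Benjamini-Hochberg adjustment over all tested genes at 0.05. Each standard error is the log2 fold change divided by the root of the F statistic. Totals of 17846211 to 22487333 counts make 3 counts worth 0.133 to 0.169 CPM. The test was also run on simulated counts, drawn independently for each gene. These held no shift shared by the genes of a library, so they do not bear on the members' shared variation. Alternatives were DESeq2 1.42.0, limma-voom (limma 3.58.1), other scalings, no filter, each library left out, the compared groups alone and a replicate block.

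Members and lists were chosen with earlier results of these data known. Named members are the one with the smallest p of each complex in each contrast, the 3 highest and lowest in level, alternative subunits and those at 0. Transcript lengths and similar stretches (blastn 2.17.0, at least 100 bases and 97% identity) come from GENCODE. Of the 86 members 34 share such a stretch with another gene.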

Additional observations from a re-analysis of the deposited data

Results flagged for a closer look

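NDUFB3, an accessory subunit of complex I, was flagged by a rule run on the named genes only. For each hormone the libraries with and without it did not overlap, in opposite directions without and with the other hormone. The margin was narrow, at 30.35 CPM in the other combination library and 30.34 CPM in estradiol replicate 2. Other members, such as NDUFB6 and UQCRC2, also changed sign for both hormones but did not meet the rule. Dexamethasone gave a log2 fold change of 0.13 in the presence of estradiol (the combination against estradiol) and -0.19 in its absence. Estradiol gave 0.12 in the presence of dexamethasone and -0.20 in its absence. The difference between these effects, the interaction, was 0.32 in both cases, with an unadjusted p of 0.0525 and an adjusted p of 0.945 in edgeR, so it did not pass the threshold. It ran from 0.24 to 0.42 when each library was left out in turn.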

How the results depend on the processing

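Leaving out each library in turn, the DESeq2 and limma-voom tests, both other scalings, no filter and the compared groups alone all gave 0 called members in all 6 comparisons in which they were run (the compared groups alone could not give the interaction). The members' median log2 fold change ran from -0.061 to 0.27 for the combination, from -0.044 to 0.25 for dexamethasone and from -0.16 to 0.15 for estradiol against DMSO, from 0.0093 to 0.19 for the combination against estradiol, from -0.097 to 0.088 against dexamethasone and from -0.16 to 0.17 for the interaction when each library was left out. Deviations of same-numbered libraries correlated over all genes at 0.0493 (dexamethasone with estradiol), 0.243 (dexamethasone with DMSO) and 0.153 (estradiol with DMSO). Over the members they correlated at 0.622, -0.186 and 0.112. ATP5E, a low-count gene, lay far from the other members, at log2 ratios of replicate 2 over 1 of -1.39 with dexamethasone, -0.78 with estradiol and 1.23 with DMSO. The correlations over the members were not recomputed without ATP5E, may rest largely on it, and are not read further. The labels state no pairing of equal numbers, so the main fit did not take the numbers as pairs. Replicate 2 was above replicate 1 for most members in all 3 groups (67, 67 and 73 of 78). With a replicate block over the 7 numbered libraries, in which the combination rests on 1 library, 3 members were called for the combination against DMSO (COX7A2, NDUFA11 and UQCR10, lowest adjusted p 0.00178), where 2.08% of all genes tested in that fit were called, and the median was 0.31 for the combination against DMSO, 0.30 against estradiol and 0.21 against dexamethasone.

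Over all genes, calls without the filter numbered 253 for dexamethasone and 442 for estradiol against DMSO, 132 for the combination against estradiol, 658 against dexamethasone and 32 for the interaction, where the filtered fit had 137, 256, 39, 379 and 3. DESeq2 gave 68 for the combination against estradiol and 13 for the interaction. The compared groups alone gave 63 for dexamethasone against DMSO and 151 for the combination against estradiol. The block gave 241, 442, 176 and 5 for dexamethasone and estradiol against DMSO, the combination against dexamethasone and the interaction. Of 520 alternative values for 35 named gene comparisons, 497 kept direction and side of the threshold, 16 lost a call, all of PPARGC1A or PPARGC1B, 2 gained one and 5 changed sign. With the replicate block COX6C in the combination against dexamethasone became 0.020 and the SDHB interaction 0.016, and PPARGC1A in the combination against estradiol and PPARGC1B in the combination against dexamethasone lost their calls (adjusted p = 0.0961 and 0.17). With a library left out, COX5B for estradiol against DMSO ran from -0.34 to 0.074 and the COX7C interaction from -0.034 to 0.24, being -0.0034 without combination replicate 1. The cause was not tested. With 2 libraries a group, the median SE of a member's log2 fold change was 0.13 in each of the 5 comparisons between groups.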
